A study of Mus musculus with 48 samples.

Results

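The cerebellum of ATXN1-82Q transgenic (Tg) mice was compared with that of wild-type (WT) mice at 12 weeks of age, with 3 libraries of each genotype. These 6 samples are part of a series of 48 that also covers the inferior olive, an age of 5 weeks and a knockin (KI) model. Both genotypes were on the FVB/NJ background and, per the study's methods, all mice were male. Tg mice carry a human ATXN1 cDNA with an expanded CAG repeat, and its product is made under the Pcp2 promoter, which directs expression to cerebellar Purkinje cells. The animals are therefore a model of Purkinje cell disease and not of the disease of every cell that expresses ATXN1. Poly-A RNA of the cerebellum was sequenced, and levels are in FPKM, the fragments of a transcript scaled by its length and by the number of fragments mapped in the library. Of 27097 entries in the table, 13641 were named and averaged 0.5 FPKM or more in each genotype, and these were tested.

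Purkinje cells are the only output neurons of the cerebellar cortex. They receive parallel fibre input from granule cells and climbing fibre input from the inferior olive, and their response to parallel fibres runs in part through inositol trisphosphate (IP3) and calcium stores. In spinocerebellar ataxia type 1, ataxin-1 with an expanded polyglutamine tract acts in the nucleus, where it forms a complex with the transcriptional repressor Capicua.

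Depth in reads is not given by FPKM values, but values below 0.1 FPKM that rest on the same few fragments differ between libraries by the ratio of their depths. By the commonest ratio of such values to those of WT replicate 1, depth was estimated to differ by up to 1.97 times between the 6 libraries. Between 12581 and 12895 genes per library reached 1 FPKM. Correlations of log2 values between libraries were 0.972 to 0.987 within a genotype and 0.970 to 0.988 between genotypes. A pair of libraries, WT replicate 2 and Tg replicate 1, held neutrophil transcripts, with the neutrophil gene S100a8 at 66.6 and 59.2 FPKM against at most 3.53 FPKM in the other libraries. Tg replicate 3 held pituitary transcripts, with growth hormone (Gh) at 616 FPKM against 49.0 in Tg replicate 2 and at most 9.25 elsewhere. WT replicate 1 held skeletal muscle transcripts, with the muscle actin Acta1 at 19.9 FPKM against at most 1.51 FPKM. Most counts of lists that lead a paragraph are therefore also given without each of these pairs of libraries. Where these values are not given, a count is not to be read as having held.

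Mouse Atxn1 (chr13:45507443-45966459 in mm10) was measured at 10.5, 10.2 and 10.9 FPKM in WT replicates 1, 2 and 3 and at 10.8, 10.6 and 10.2 FPKM in Tg replicates 1, 2 and 3. The ranges overlapped, and the log2 fold change was −0.00 (adjusted p = 0.999). The reads were assigned to the mouse gene, so this value does not measure the human transgene, and the labels could not be checked by it.

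At an adjusted p below 0.05 in limma, 1025 genes differed between the genotypes, which is 7.51% of those tested. Of these, 718 were lower in Tg cerebellum (5.26%) and 307 were higher (2.25%). The median log2 fold change over all genes tested was −0.02. In every called gene the ranges of the genotypes did not overlap, which was so for 29.2% of all genes tested. The median called gene was at 72.6% of the WT level if lower and at 137% if higher. Changes beyond 2-fold were found in 106 genes that fell and in 9 that rose. The number called depended on which libraries were used, and was 435 without WT replicate 1, 675 without WT replicate 2, 469 without Tg replicate 2 and 526 without Tg replicate 3. The higher genes were affected most, with 84, 193, 76 and 106 called in those fits and 195 without Tg replicate 1, and the lower genes numbered 351, 482, 393 and 420. Without the pair that held neutrophil transcripts 499 genes were called (132 higher, 367 lower), and without the pair that held muscle or pituitary transcripts 290 (41 higher, 249 lower).

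**Figure D1:**
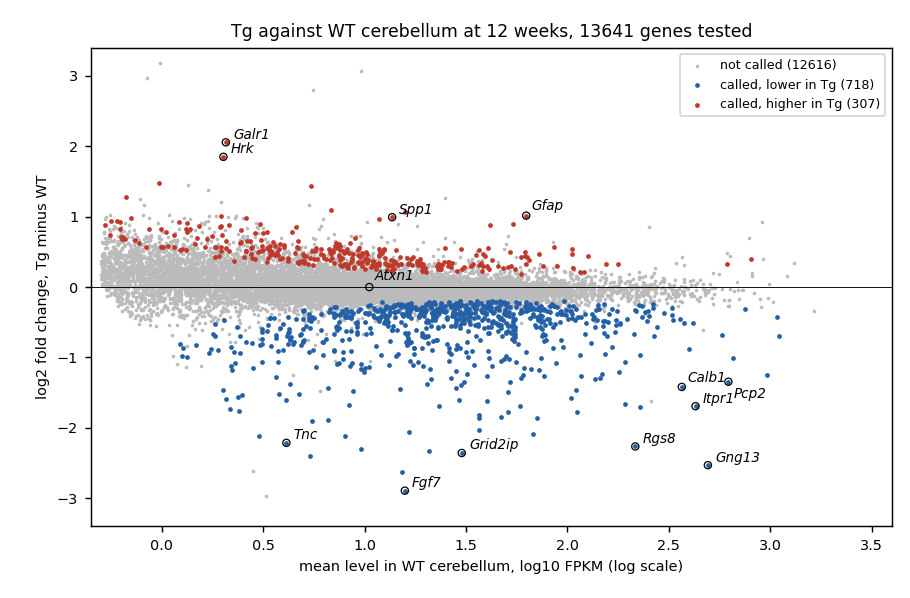
Log2 fold change of each tested gene (Tg minus WT, 12 weeks) against its mean level in WT cerebellum in log10 FPKM, with called genes in colour and named genes circled. The genes that fell reach a log2 fold change of −2.89 (Fgf7) and include genes of high level such as Gng13 and Pcp2, whereas few of the genes that rose pass 1, and 5 genes lie outside the axes.

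Transcripts that mark Purkinje cells were lower in Tg cerebellum. Of 27 markers tested, 25 fell (92.6%, against 5.26% of all genes tested), 0 rose and 2 were not called. The median log2 fold change of the list was −1.27. Members were chosen with earlier results of these data known, so the count describes the list and tests nothing. Of the 25, 17 were at a log2 fold change of −1 or below. The summed level of the markers was 4196 to 5096 FPKM in WT libraries and 1964 to 2138 FPKM in Tg libraries. The count was 23 to 25 when any 1 library was left out and not below 20 without either pair of libraries described above. In bulk tissue, fewer Purkinje cells and less RNA per Purkinje cell cannot be told apart.

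Pcp2, which encodes a Purkinje cell regulator of G protein signalling and whose promoter drives the transgene, was at 688, 614 and 565 FPKM in WT and at 219, 256 and 258 FPKM in Tg cerebellum. Every Tg library was far below every WT library, and the log2 fold change was −1.35 ± 0.0989 (SE), with an adjusted p of 0.000185. Calbindin (Calb1), the cytosolic calcium buffer used to stain Purkinje cells, was at 401, 375 and 325 FPKM in WT and at 121, 142 and 148 FPKM in Tg. Its log2 fold change was −1.42 (adjusted p = 0.000176), and the ranges were far apart. Rgs8, a GTPase-activating protein for G proteins of the Gq and Gi classes, had the largest fall among the markers. It was at 240, 217 and 192 FPKM in WT and at 44.3, 46.6 and 43.3 FPKM in Tg, and its log2 fold change was −2.27 ± 0.0831 (SE), with an adjusted p of 1.96e-05. The Tg libraries lay close together and far below the lowest WT library. Pcp4, a small calmodulin-binding protein, was the marker of highest level, at 1031, 951 and 906 FPKM in WT and 366, 403 and 441 FPKM in Tg (log2 fold change −1.26, adjusted p = 0.000194).

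The log2 fold changes of the markers called ranged from −2.27 to −0.27. The transcription factors among them were at −1.15 (Lhx5), −0.86 (Lhx1), −0.80 (Skor2), −0.73 (Ebf2), −0.53 (Rora, adjusted p = 0.00169) and −0.34 (Ebf1, adjusted p = 0.00686). Skor2 was called in 11 of 18 alternative settings and, among the fits without 1 library, only without WT replicate 3. Parvalbumin (Pvalb), a calcium buffer that molecular layer interneurons also express, was at −0.68 (adjusted p = 0.00665). Gad1, the GABA-synthesizing enzyme shared with every other GABAergic neuron, was at 246, 214 and 220 FPKM in WT and at 198, 206 and 223 FPKM in Tg. Its ranges overlapped, and its log2 fold change was −0.12 (adjusted p = 0.399). Foxp2, a transcription factor of Purkinje cells and of some cerebellar nuclei neurons, was at 4.44, 4.15 and 4.79 FPKM in WT and at 4.52, 5.10 and 5.56 FPKM in Tg (log2 fold change 0.18, adjusted p = 0.346). Of the 7 genes listed for Purkinje cell stripes that were tested, 6 fell (85.7%, against 5.26% of all genes tested). The median log2 fold change was −1.17. This list shares 4 genes with the Purkinje cell markers, and of the other 3 genes 2 fell.

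**Figure D2:**
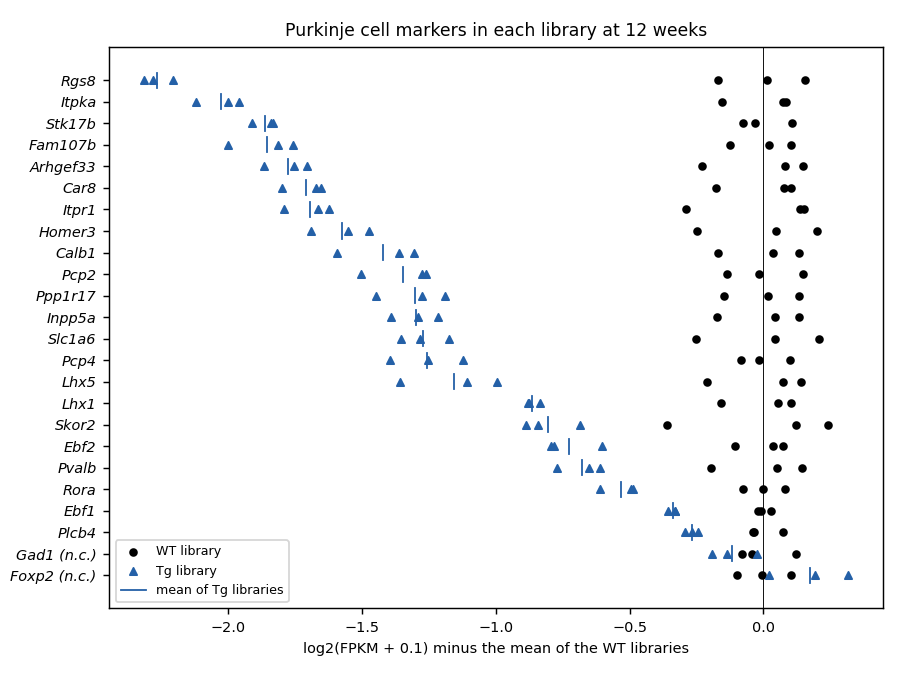
Level of 24 of the 27 Purkinje cell markers in each library, as log2(FPKM + 0.1) minus the mean of the 3 WT libraries, with the mean of the Tg libraries as a bar (n.c., not called). The 22 called markers shown have every Tg library to the left of every WT library, from Rgs8 at −2.27 to Plcb4 at −0.27, while the libraries of Gad1 and Foxp2 overlap.

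Most genes listed for IP3 signalling fell in Tg cerebellum. Of 30 genes tested, 19 fell (63.3%, against 5.26% of all genes tested) and 1 rose (3.33%, against 2.25%). The median log2 fold change was −0.47. The list shares 10 of these genes with the Purkinje cell markers, and of the other 20 genes 9 fell and 1 rose, with a median of −0.25. Of the full list, 15 to 18 genes were lower when any 1 library was left out. Without the neutrophil pair 16 were lower, and without the muscle and pituitary pair 13. Of the G protein alpha subunits that activate phospholipase C, Gnaq was at −0.23 (adjusted p = 0.0356, called in 7 of 18 alternative settings) and Gna11 at −0.06 (adjusted p = 0.59). Of the phospholipases, Plcb3, expressed in one set of Purkinje cell stripes, was at 22.4, 21.8 and 16.8 FPKM in WT and 7.61, 8.09 and 7.38 FPKM in Tg, a log2 fold change of −1.38 (adjusted p = 0.000278). Plcb4, expressed in the complementary set, was at 90.3, 83.4 and 83.8 FPKM in WT and 71.3, 72.4 and 70.1 FPKM in Tg, a log2 fold change of −0.27 (adjusted p = 0.0213, called in 11 of 18 settings). Both were lower in every Tg library, and the fall of Plcb3 was the larger.

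Downstream, the IP3 receptor gene Itpr1 (chr6:108211773-108551148) was at 471, 467 and 347 FPKM in WT and 122, 138 and 134 FPKM in Tg, and its log2 fold change was −1.69 ± 0.12 (SE), with an adjusted p of 0.00016. WT replicate 3 was the lowest of its group and still lay far above each Tg library. Car8, a carbonic anhydrase-related protein that binds the IP3 receptor and lowers its affinity for IP3, was at 239, 243 and 200.01 FPKM in WT and 65.1, 71.9 and 71.0 FPKM in Tg (log2 fold change −1.71, adjusted p = 3.94e-05). The scaffold gene Homer3 was at −1.57, while Homer1 was at −0.02 (adjusted p = 0.948). Enzymes that remove IP3 or diacylglycerol fell as well: the IP3 kinase Itpka to −2.03, the phosphatase Inpp5a to −1.30 and the diacylglycerol kinase Dgkz to −1.21. The related IP3 kinase Itpkb was the 1 gene of the list that rose, from 18.9, 17.6 and 17.9 FPKM to 21.3, 23.7 and 23.7 FPKM (log2 fold change 0.34, adjusted p = 0.0186). It was not called without WT replicate 2, Tg replicate 2 or Tg replicate 3. Of the kinases that act later in the route, Camk2a was at −0.55, Camk2b at −0.45 and the cGMP-dependent kinase Prkg1 at −0.63. Ppp1r17, a Purkinje cell substrate of that kinase which inhibits protein phosphatases, was at −1.30 (adjusted p = 0.000147).

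Genes for calcium pumps, stores and buffers were mixed, with a median log2 fold change of −0.13. Of 27 tested, 11 fell (40.7%, against 5.26% of all genes tested) and 2 rose (7.41%, against 2.25%). The number lower was 8 to 10 when any 1 library was left out. It was 8 without the neutrophil pair and 7 without the muscle and pituitary pair. Atp2a3, which encodes the calcium pump SERCA3, was at 77.8, 66.1 and 59.1 FPKM in WT and 13.9, 17.2 and 16.4 FPKM in Tg, a log2 fold change of −2.09 (adjusted p = 4.89e-05). The more widely expressed pump gene Atp2a2 was at −0.57 (adjusted p = 0.0029). The calcium sensor gene Hpcal1 was at −1.67 (adjusted p = 0.000101). Atp2b2, a plasma membrane pump, had 2 entries in the table. The entry of higher level fell from 173, 148 and 148 FPKM to 93.5, 102 and 92.2 FPKM (log2 fold change −0.70, adjusted p = 0.00153). The other was at 7.45, 4.17 and 4.87 FPKM in WT and at 0.196, 0.262 and 0.341 FPKM in Tg, and it was not tested because its Tg mean was below 0.5 FPKM. The ryanodine receptor genes moved in opposite directions, with Ryr1 at −0.60 and Ryr3 at 0.73 (adjusted p = 0.0176). Their calls held in 9 and 13 of 18 settings, and Atp2b4, which rose to 0.42, was called in 13.

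The largest falls among called genes of 2 FPKM or more were in genes of varied function. Fgf7, a secreted fibroblast growth factor (chr2:125859109-126152004), was at 16.4, 15.5 and 15.5 FPKM in WT and at 1.82, 2.15 and 2.15 FPKM in Tg. This was 13.4% of the WT level, the log2 fold change of −2.89 ± 0.0857 (SE) was the largest fall of a gene called at 2 FPKM or more, and its p was the smallest of all (adjusted p = 1.1e-05). Gng13, a G protein gamma subunit (chr17:25717172-25727415), was the most abundant of the genes that fell by more than 2 on the log2 scale. It was at 555, 505 and 419 FPKM in WT and 78.6, 93.8 and 82.1 FPKM in Tg (log2 fold change −2.53, adjusted p = 2.67e-05). Gchfr, the feedback regulator of the first enzyme of tetrahydrobiopterin synthesis, was at 16.5, 15.9 and 13.4 FPKM in WT and 3.07, 2.1 and 2.07 FPKM in Tg (−2.63). Each of these 3 genes had its Tg libraries far below its WT libraries, with no library between.

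Several of the other large falls were in genes of the postsynaptic site, the cell surface and the extracellular matrix. Grid2ip, a scaffold of parallel fibre synapses, was at 32.7, 31.9 and 25.8 FPKM in WT and 5.57, 6.26 and 5.47 FPKM in Tg (log2 fold change −2.36, adjusted p = 2.67e-05). Col18a1, the collagen from which endostatin is cleaved, was at −2.34, and tenascin C (Tnc), a matrix glycoprotein, was at −2.21 (adjusted p = 0.000391). Trabd2b, a membrane protease that inactivates Wnt proteins, was at −2.40, the actin-bundling gene Espn at −2.12, the tetraspanin gene Tspan11 at −2.12 and the receptor gene Gpr63 at −2.06. The centrosomal kinase gene Nek2 was at 9.84, 10.6 and 8.42 FPKM in WT and at 1.82, 1.90 and 1.87 FPKM in Tg, a log2 fold change of −2.30. Frmpd3, which encodes a FERM and PDZ domain protein, had 2 tested entries, at −1.91 and −0.67. The kinase gene Stk17b (−1.86) and Fam107b (−1.86), both listed as Purkinje cell markers, and the adaptor gene Stac (−1.89) complete the 10 smallest p-values. The genes of this paragraph and the one before it were called in every setting in which they could be tested, apart from the second Frmpd3 entry, which was not repeated.

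Among synaptic organizers and scaffolds, 13 of 39 genes fell (33.3%, against 5.26% of all genes tested) and 2 rose (5.13%, against 2.25%). The median log2 fold change was −0.19. The scaffolds Shank2 (−1.12, adjusted p = 0.000207), Shank1 (−0.58) and Baiap2 (−0.77) fell, as did the adhesion protein gene Clstn2 (−0.82). Cbln1, a synaptic organizer that granule cells secrete, was at 340, 279 and 314 FPKM in WT and 285, 281 and 231 FPKM in Tg, with overlapping ranges (−0.23, adjusted p = 0.241). Its relative Cbln3 was at −0.46 (adjusted p = 0.0297, called in 10 of 18 settings). The 2 genes that rose, C1ql3 (0.39) and Cbln4 (0.85), were called in 13 and 9 of 18 settings. The number of lower members was 8 without WT replicate 1 and 7 without Tg replicate 3. It was 8 without the neutrophil pair and 6 without the muscle and pituitary pair.

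Of 15 genes for GABA synthesis, transport and metabotropic receptors 4 were lower (26.7%, against 5.26% of all genes tested), with a median of −0.11. Abat was the 1 gene that was higher (0.21, called in 7 of 18 settings), a share of 6.67% against 2.25%. Without the neutrophil pair 3 were lower and 0 higher, and the same was so without the muscle and pituitary pair. The GABA-B receptor subunit Gabbr1 was at 229, 207 and 204 FPKM in WT and 135, 135 and 132 FPKM in Tg (log2 fold change −0.67, adjusted p = 0.000597). Its partner Gabbr2 was at −0.86 and the auxiliary subunit Kctd12 at −1.17 (adjusted p = 4.89e-05). All 3 are parts of one receptor complex, and each had every Tg library below every WT library. The vesicular GABA transporter gene Slc32a1 was at 67.1, 63.7 and 56.1 FPKM in WT and 64.3, 59.0 and 50.4 FPKM in Tg (−0.11, adjusted p = 0.569). With 6.67% lower, against 5.26% of all genes tested, the GABA-A receptor subunit genes gave no result as a family. Of 15 tested, 1 fell and 0 rose (median 0.12). That gene was Gabra6, the granule cell subunit, at 344, 293 and 342 FPKM in WT and 253, 242 and 247 FPKM in Tg (−0.40, adjusted p = 0.0213, called in 13 of 18 settings).

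Of 18 ionotropic glutamate receptor genes 6 fell (33.3%, against 5.26% of all genes tested) and 0 rose (median −0.18). They were led by the kainate receptor gene Grik1, at 9.66, 8.06 and 7.74 FPKM in WT and 3.74, 3.87 and 3.86 FPKM in Tg. Its log2 fold change was −1.12 (adjusted p = 0.000386). Gria3, an AMPA receptor subunit, was at −0.43. The count of 6 was 3 without WT replicate 1, WT replicate 2, Tg replicate 2 or Tg replicate 3. The glutamate transporter gene of Purkinje cells, Slc1a6, was at −1.27 (adjusted p = 0.000436).

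Ion channel families contained calls in both directions. Of 62 potassium channel subunit genes 16 fell (25.8%, against 5.26% of all genes tested) and 3 rose (4.84%, against 2.25%). The median log2 fold change was 0.01. Kcnab1, an auxiliary subunit, was at 58.6, 52.8 and 55.2 FPKM in WT and 25.6, 25.2 and 28.3 FPKM in Tg (log2 fold change −1.07, adjusted p = 7.33e-05). The silent subunit Kcng4 was at −1.05. The large-conductance calcium-activated channel gene Kcnma1 (−0.69) and its beta subunit Kcnmb4 (−0.91) both fell, as did Kcnip1, a cytosolic subunit of A-type channels (−0.86, adjusted p = 0.00021). The small-conductance channel gene Kcnn2 was at 0.33 and Kcna2 at 0.19, with Kcnq3 at 0.47. These 3 rises were called in 15, 8 and 13 of 18 settings. Without WT replicate 1, 8 members of the family were called lower, and without WT replicate 2 or Tg replicate 2, 0 were called higher. Without WT replicate 3, 7 were. Without the neutrophil pair 12 members were called lower, and without the muscle and pituitary pair 8.

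Of 22 voltage-gated calcium channel genes 7 fell (31.8%, against 5.26% of all genes tested) and 1 rose (4.55%, against 2.25%). Their median was −0.02. The T-type channel gene Cacna1g was at 56.9, 52.9 and 43.7 FPKM in WT and 17.1, 19.4 and 17.4 FPKM in Tg (log2 fold change −1.50, adjusted p = 0.000125). Cacna1a, the P/Q-type channel that carries most Purkinje cell calcium current, was at −0.44 (adjusted p = 0.0427, called in 9 of 18 settings), and the auxiliary subunits Cacnb2 and Cacna2d2 were at −0.80 and −0.66. Cacna1e was the gene that rose (0.55, called in 13 of 18). The number of lower members was 4 without WT replicate 1, WT replicate 2, Tg replicate 1 or Tg replicate 3. It was 3 without the neutrophil pair and 3 without the muscle and pituitary pair. Among 7 voltage-gated sodium channel genes 1 fell, Scn2b (−0.34, called in 10 of 18), and 0 rose (median −0.05). The share was 14.3%, against 5.26% of all genes tested, and this single call is no result about the family.

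Other families of signalling genes were called in shares of 0 to 19.6%, against 7.51% of all genes tested. Of 56 exchange factors and activating proteins of small GTPases (the Arhgef, Arhgap and Dock families) 9 fell (16.1%, against 5.26% of all genes) and 2 rose (median −0.00), with Arhgef33 at −1.78 and Arhgap26 at −0.58, and the rises were Arhgap36 (1.29, adjusted p = 0.0495, called in 5 of 16 settings) and Arhgap24 (0.56, adjusted p = 0.0475). Of 20 small GTPases of the Ras homolog, Rac, Cdc42 and Rnd families 2 fell and 1 rose (median 0.04), with Rhobtb2 at −0.90, Rhod at −0.83 (called in 9 of 18 settings) and Rhoq at 0.32 (adjusted p = 0.0424). Regulators of G protein signalling had 2 falls among 16 genes (median 0.10), Rgs8 and Rgs7bp (−0.39). Of 12 protocadherins 0 were called, and their median was 0.40. Without WT replicate 3, 5 protocadherins and 3 regulators of G protein signalling were called higher, and the 2 higher exchange factors or activating proteins were 0 or 1 in each fit without 1 library.

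Genes whose human counterparts are mutated in other spinocerebellar ataxias were examined as a list. Of 26 tested, 7 fell (26.9%, against 5.26% of all genes tested) and 0 rose, with a median log2 fold change of −0.10. Without the neutrophil pair 6 fell, and without the muscle and pituitary pair 6. The 7 include Itpr1, Cacna1g and Cacna1a, described above. The list shares 4 genes with the Purkinje cell markers, and of the other 22 genes 3 fell (median −0.07).

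Of 13 tested genes for Atxn1 and proteins that bind it, 2 fell (15.4%, against 5.26% of all genes tested) and 0 rose (median −0.09). Without the neutrophil pair 1 fell, and without the muscle and pituitary pair 1. Of the 2, 1 was Rora, a Purkinje cell marker given above. Of the other 12 genes 1 fell, Capicua (Cic), at 35.5, 34.6 and 32.7 FPKM in WT and 29.3, 30.0 and 26.1 FPKM in Tg. The ranges of Cic did not overlap, but its log2 fold change of −0.27 had an adjusted p of 0.0496 and was called in 7 of 18 settings. The paralog Atxn1l was at −0.10 (adjusted p = 0.461).

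Of 14 genes listed as targets of Capicua and Ets factors 4 fell (28.6%, against 5.26% of all genes tested) and 1 rose (7.14%, against 2.25%). Their median was −0.26. Etv4 was at 5.95, 5.11 and 5.69 FPKM in WT and 2.65, 3.06 and 3.14 FPKM in Tg (log2 fold change −0.90, adjusted p = 0.00156), and Etv1, which granule cells also express, was at −0.47. Etv5 was at −0.34 (adjusted p = 0.0622). The MAP kinase phosphatase genes Dusp4 (−0.64) and Dusp5 (−0.52) were called in 9 and 7 of 18 settings. Cyclin D1 (Ccnd1) was the gene that rose, from 7.60, 6.88 and 8.05 FPKM to 10.3, 10.4 and 10.4 FPKM (log2 fold change 0.46, adjusted p = 0.00916). The number of lower targets was 2 without WT replicate 1, WT replicate 2 or Tg replicate 3. It was 3 without the neutrophil pair and 1 without the muscle and pituitary pair.

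Capicua binds an octamer of the form TGAATGAA or TGAATGGA, and RefSeq promoter windows of GRCm38.p6 (the assembly of mm10), from 250 bases before to 50 bases after the start site, were searched for both on both strands. At least 1 octamer was found in 2.47% of 32851 windows. By gene, the share was 1.83% among the 9746 tested genes with a window, 3.15% among 222 genes called higher, 2.24% among 492 called lower and 1.77% among genes not called. None of the 8 listed targets of Capicua and Ets factors with a window held one. Among 16 Purkinje cell markers with a window 1 did, the window of Pcp2, which is shown because the same gene's promoter drives the transgene. The window of Kcnip1 is shown as that of a called ion channel gene with an octamer. Both are on the minus strand and written 5′ to 3′, with the octamer in capitals, and a match of these letters is a description of the window and not a binding site.
Pcp2 (chr8:3625233-3625532): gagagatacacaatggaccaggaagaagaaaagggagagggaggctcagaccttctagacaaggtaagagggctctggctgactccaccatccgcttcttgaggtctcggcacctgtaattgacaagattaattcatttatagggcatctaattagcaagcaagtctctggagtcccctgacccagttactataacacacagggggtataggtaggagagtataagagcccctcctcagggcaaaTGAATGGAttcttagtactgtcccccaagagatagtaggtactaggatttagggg
Kcnip1 (chr11:33843637-33843936): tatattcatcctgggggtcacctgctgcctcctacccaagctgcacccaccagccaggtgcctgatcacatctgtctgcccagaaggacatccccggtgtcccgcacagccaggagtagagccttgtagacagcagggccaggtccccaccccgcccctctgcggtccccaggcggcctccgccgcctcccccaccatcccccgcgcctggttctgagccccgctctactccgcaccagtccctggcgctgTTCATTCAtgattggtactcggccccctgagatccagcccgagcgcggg
In Pcp2 the octamer TGAATGGA lies across the start site, at position −5 from it. In Kcnip1 the octamer is read on the other strand (TTCATTCA as written) and begins at position 2. Both genes fell, Pcp2 by 1.35 and Kcnip1 by 0.86 on the log2 scale.

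Markers of granule cells, the most numerous cerebellar neurons, were also lower. Of 18 tested 7 fell (38.9%, against 5.26% of all genes tested) and 0 rose, with a median log2 fold change of −0.28. The summed level was 2418 to 2820 FPKM in WT and 1913 to 2135 FPKM in Tg. Chn2, a GTPase-activating protein for Rac, was at 281, 269 and 249 FPKM in WT and 180, 167 and 146 FPKM in Tg (log2 fold change −0.70, adjusted p = 0.0031). Calretinin (Calb2) was at 190, 181 and 176 FPKM in WT and 128, 133 and 124 FPKM in Tg (−0.51, adjusted p = 0.00144). Rbfox3, the gene of the neuronal marker NeuN, was at −0.51 and the NMDA receptor subunit Grin2c at −0.39, called in 11 and 8 of 18 settings. Markers of the same cells that were not called include Neurod1 (−0.03, adjusted p = 0.887) and the vesicular glutamate transporter Slc17a7 (−0.34, adjusted p = 0.186). Without WT replicate 1 or Tg replicate 3, 3 markers were called, and without Tg replicate 1 or Tg replicate 2, 4 were. Without the neutrophil pair 4 were called, and without the muscle and pituitary pair 2.

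Among markers of other cerebellar interneurons, 3 of 17 fell (17.6%, against 5.26% of all genes tested) and 1 rose (5.88%, against 2.25%). The median log2 fold change was 0.14. Pvalb is also listed as a Purkinje cell marker, and of the other 16 genes 2 fell and 1 rose. Without the neutrophil pair 0 fell and 0 rose, and without the muscle and pituitary pair 1 fell and 0 rose. The falls were Pvalb, Npy (−0.54, adjusted p = 0.0075) and Eomes, a marker of unipolar brush cells (−0.49, called in 6 of 18 settings). Slc6a5, the glycine transporter of Golgi cells and other glycinergic neurons, was at 6.70, 6.72 and 5.95 FPKM in WT and 8.80, 7.85 and 8.92 FPKM in Tg (log2 fold change 0.40, adjusted p = 0.0286, called in 10 of 18 settings). Markers of the cerebellar nuclei and of neighbouring brain regions were mostly too low to test. Of 22, 10 were tested, with 1 higher (10%, against 2.25% of all genes tested) and 0 lower (median 0.53). The summed level of all 22 was 172 to 193 FPKM in WT and 202 to 241 FPKM in Tg. The gene called was Spp1, which is described with the rises, and without WT replicate 3 the calls were 3 higher and 1 lower.

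The genes that rose were fewer than those that fell, and fewer of them passed 2-fold. Hrk, a BH3-only protein that opposes Bcl-2 and Bcl-xL (chr5:118169764-118189478), was at 2.2, 1.96 and 1.87 FPKM in WT and at 7.48, 7.84 and 7.17 FPKM in Tg. This was a 3.61-fold rise, or 1.85 ± 0.0914 (SE) on the log2 scale, with an adjusted p of 3.94e-05. The libraries of each genotype lay close together, with a wide gap between the genotypes. Bok, a Bcl-2 family member, was at −0.37 (called in 7 of 18 settings). The p53 target Bbc3 was at 0.53 (adjusted p = 0.0884).

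Galr1, a receptor of the neuropeptide galanin, had the largest rise among called genes of 2 FPKM or more. It was at 1.29, 2.96 and 1.95 FPKM in WT and at 12.1, 7.57 and 6.59 FPKM in Tg, which is 2.06 ± 0.309 (SE) on the log2 scale, with an adjusted p of 0.00734. Its libraries were spread widely within each genotype but did not overlap. Pappa, a protease that cleaves insulin-like growth factor-binding proteins, was at 0.813, 0.923 and 1.16 FPKM in WT and 3.08, 2.82 and 2.67 FPKM in Tg (log2 fold change 1.48, adjusted p = 0.000896). A second entry for Pappa, untested at 0.417, 0.519 and 0.602 FPKM in WT, was at 0.122, 0.383 and 0.247 FPKM in Tg, so the 2 entries of this gene differed in direction. Neurotrophin-3 (Ntf3), a ligand of TrkC, was at 3.54, 3.00 and 2.64 FPKM in WT and 5.30, 6.16 and 5.80 FPKM in Tg (log2 fold change 0.90, adjusted p = 0.00406). Osteopontin (Spp1) was at 12.3, 14.6 and 14 FPKM in WT and 29.0, 23.9 and 29.1 FPKM in Tg (log2 fold change 0.99, adjusted p = 0.000745).

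The other named rises were Mxra7 (log2 fold change 1.10), the transcription factor Creb5 (1.01), the glycine receptor subunit Glra1 (0.98), the citrullinating enzyme Padi2 (0.96), the pyrimidine-degrading enzyme Dpyd (0.92) and the anion exchanger Slc26a7 (0.91). Of these, Glra1, Padi2, Dpyd and Slc26a7 were called in 9, 13, 10 and 9 of 18 settings, and Mxra7 and Creb5 in every one. Of 23 neurotrophin, insulin-like growth factor and related genes 3 rose (13%, against 2.25% of all genes tested) and 3 fell (13%, against 5.26%). Their median was −0.04. Besides Ntf3, the BDNF receptor gene Ntrk2 (0.30) and Igfbp2 (0.88, called in 9 of 18 settings) rose, and 5 members were called higher without WT replicate 3. Igfbp5, a binding protein of insulin-like growth factors, was at 77.3, 72.7 and 73.1 FPKM in WT and 35.6, 35 and 39.9 FPKM in Tg (log2 fold change −1.01, adjusted p = 8.8e-05). The sonic hedgehog receptor gene Ptch1 (−0.38) and the hedgehog target Gli1 (−0.69, called in 12 of 18 settings) also fell, and without Tg replicate 2 the list had 1 lower call.

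**Figure D3:**
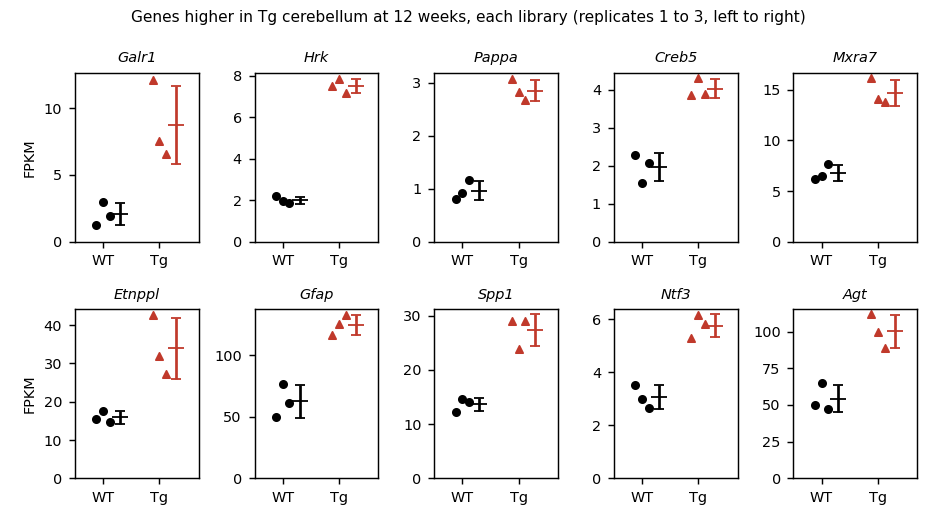
FPKM of 10 genes called higher in Tg cerebellum at 12 weeks, 1 point per library, with the mean and SD of the 3 libraries of each genotype beside the points (axes start at 0). The Tg points of Hrk sit tightly at 7.17 to 7.84 FPKM, whereas those of Galr1 spread from 6.59 to 12.1 FPKM.

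Neuropeptide genes included 2 falls (12.5%, against 5.26% of all genes tested) and 1 rise (6.25%, against 2.25%) among 16 tested (median 0.43). Cholecystokinin (Cck) was at 61.6, 53.4 and 61.7 FPKM in WT and 25.5, 22.8 and 23.8 FPKM in Tg (log2 fold change −1.29, adjusted p = 5.63e-05), and its ranges lay far apart. Npy was the other fall, and Adcyap1, which encodes PACAP, rose to 0.78 (adjusted p = 0.0372, called in 9 of 18 settings). Without WT replicate 3, 4 neuropeptide genes were called higher, and in each other fit without 1 library 0 were. Without the neutrophil pair 0 were higher and 1 was lower. Without the muscle and pituitary pair 0 were higher and 2 were lower.

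Glial lists were called higher in larger shares than all genes tested (2.25%), though most of their markers were not called. Of 19 markers of astrocytes and Bergmann glia, the radial astrocytes that ensheath Purkinje cells, 2 rose (10.5%) and 1 fell (median 0.21). Without the neutrophil pair 4 of 18 rose and 1 fell, and without the muscle and pituitary pair 2 of 19 rose and 1 fell. Gfap (chr11:102887333-102900794), the astrocyte intermediate filament gene, was at 49.7, 76.5 and 61.6 FPKM in WT and 117, 125 and 133 FPKM in Tg (log2 fold change 1.02 ± 0.141, adjusted p = 0.00504). The gap junction gene Gja1 was at 0.53 (adjusted p = 0.0148) and was not called without Tg replicate 2 or Tg replicate 3. Slc1a3, which encodes the glutamate transporter GLAST and is abundant in Bergmann glia, was at 401, 363 and 357 FPKM in WT and 258, 262 and 268 FPKM in Tg (log2 fold change −0.51, adjusted p = 0.00368). Gfap and Slc1a3 thus moved in opposite directions, both without overlap. The astrocyte genes Etnppl (1.07, adjusted p = 0.00601) and Agt (0.89, adjusted p = 0.00547), named among the largest rises and not in the list, were at 15.4, 17.7 and 14.6 against 42.7, 31.8 and 27.3 FPKM and at 50.3, 64.7 and 47.5 against 112, 99.9 and 89.1 FPKM.

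All 22 tested microglia and complement markers had a log2 fold change above 0, with a median of 0.58, and 4 were called (18.2%). Of all genes tested 45.6% were above 0. Trem2, a lipid receptor of microglia, was at 3.02, 3.70 and 2.74 FPKM in WT and 5.06, 5.50 and 5.59 FPKM in Tg (log2 fold change 0.76, adjusted p = 0.00868). Cx3cr1 (0.66) and Csf1r (0.53) were also among those called, in 13 and 9 of 18 settings. The complement gene C1qa was at 12.2, 28.5 and 13.9 FPKM in WT and 45.7, 26.1 and 24.7 FPKM in Tg, and WT replicate 2 lay above Tg replicates 2 and 3 (log2 fold change 0.86, adjusted p = 0.175). WT replicate 2 and Tg replicate 1, the highest library of each genotype for C1qa, are the pair with neutrophil transcripts. The summed level of the list was 138 to 226 FPKM in WT and 226 to 328 FPKM in Tg. The number called was 12 without WT replicate 2, 1 without WT replicate 1 or Tg replicate 2, 2 without WT replicate 3 or Tg replicate 3, 9 without the neutrophil pair and 0 without the muscle and pituitary pair.

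Oligodendrocyte lineage markers were also above 0 in all 20 tested, with a median log2 fold change of 0.33, and 3 were called (15%): Cldn11 (0.47), Mal (0.42) and Myrf (0.34), each in 11 of 18 settings. The summed level was 1918 to 2396 FPKM in WT and 2582 to 3130 FPKM in Tg. Of these markers 0 were called without WT replicate 1 or WT replicate 2, 1 without Tg replicate 2 and 6 without WT replicate 3. Without the neutrophil pair 0 were called, and without the muscle and pituitary pair 0.

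Choroid plexus and leptomeninges lie outside the cerebellar parenchyma and can be carried along in dissection. All 17 choroid plexus markers were above 0 with a median log2 fold change of 0.85, but only Igfbp2 was called. Transthyretin (Ttr), the main product of the choroid plexus, was at 559, 906 and 1267 FPKM in WT and 1362, 1784 and 1808 FPKM in Tg (log2 fold change 0.92, adjusted p = 0.0859). Its ranges did not overlap, but the WT libraries alone differed by more than the gap between the genotypes, and the summed level of the list was 799 to 1755 FPKM in WT and 1835 to 2589 FPKM in Tg. The count was 8 without WT replicate 3 and 0 without WT replicate 1, WT replicate 2, Tg replicate 2 or Tg replicate 3. It was also 0 without the neutrophil pair and 0 without the muscle and pituitary pair. Of 15 leptomeningeal fibroblast markers 4 rose (26.7%, against 2.25% of all genes tested) and 0 fell (median 0.46). The 4 were the collagen genes Col1a1 (0.51) and Col1a2 (0.52), Fmod (0.55) and Slc13a4 (0.58). The number that rose was 1 without WT replicate 1, 7 without Tg replicate 1, and 0 without Tg replicate 2 or Tg replicate 3. It was 5 without the neutrophil pair and 0 without the muscle and pituitary pair. The summed level of the 15 markers was 118 to 157 FPKM in WT and 170 to 227 FPKM in Tg. The part of dissection in both lists was not tested.

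The remaining lists had no more than 1 call each, a share of 0 to 6.67% against 7.51% of all genes tested. None of 16 vascular markers (median 0.09) and none of 24 interferon-stimulated genes (median 0.11) was called, although 2 of the interferon-stimulated genes and 1 vascular marker had all Tg libraries above all WT libraries, as had 12.2% of all genes tested. Both erythrocyte markers tested were not called (median 0.40). Of 18 immediate early genes 1 rose, Jun, from 28.7, 25.2 and 21.0 FPKM to 39.8, 38.5 and 31.8 FPKM (log2 fold change 0.56, adjusted p = 0.0369, called in 11 of 18 settings), with a median of 0.10. Of 15 circadian clock genes 1 fell, Arntl (−0.36, adjusted p = 0.021, called in 12 of 18), with a median of −0.12. These single calls are near the shares over all genes, 2.25% higher and 5.26% lower, and are no result about the lists.

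**Figure D4:**
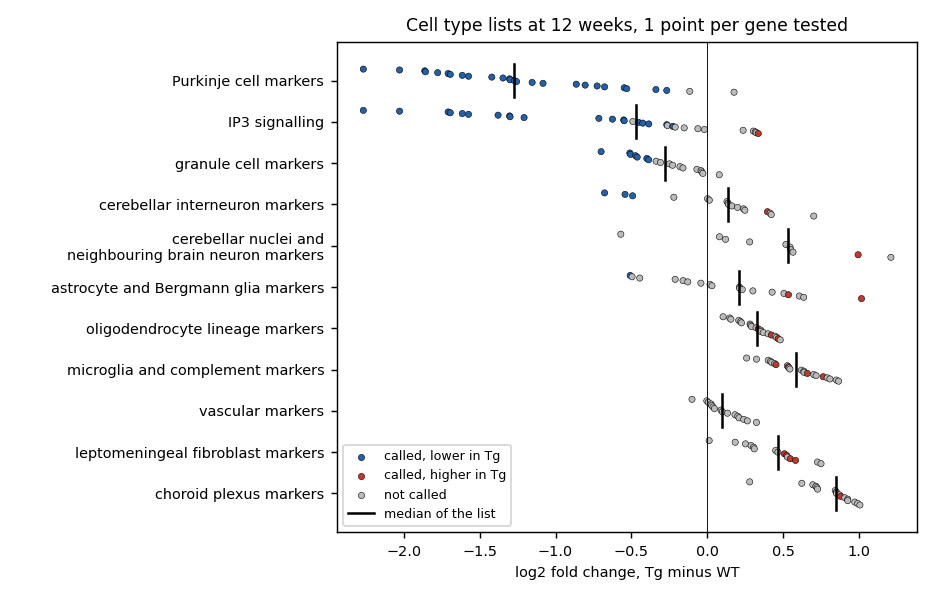
Log2 fold change (Tg minus WT, 12 weeks) of each tested gene of 11 lists, 1 point per gene, with the median of each list as a bar. Purkinje cell markers (median −1.27) and IP3 signalling genes (−0.47) lie to the left, granule cell markers (−0.28) next, and oligodendrocyte, microglia, leptomeningeal and choroid plexus markers to the right of 0, with 3, 4, 4 and 1 called.

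The same comparison at 5 weeks, with 3 Tg and 3 WT libraries of its own, called 552 genes, which is 4.10% of those tested (0.423% higher, 3.67% lower). Of the genes called at 12 weeks 968 could be tested at both ages, and 381 of them were called at both. That is 39.4% of the 12 week genes and 73.8% of the 516 called at 5 weeks, and all 381 had the same direction. Among the 664 genes called lower at 12 weeks, 355 were called at 5 weeks, and the median log2 fold change was −0.46 at 12 weeks and −0.24 at 5 weeks. Among the 304 called higher at 12 weeks, 26 were called at 5 weeks, with medians of 0.45 and 0.10. Since these genes were chosen by their calls at 12 weeks, the medians describe them and test nothing. The Purkinje cell markers had 25 of 27 lower at 5 weeks as well, with a median of −0.89.

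The difference between the ages was tested for each gene by the interaction of age and genotype. Of 12536 genes, 11 were called (0.0877%), and all 11 had a larger change at 12 weeks. In 10 of them (0.0798% of genes tested) the fall was larger, and in 1 (0.00798%) the rise. The 10 were Fgf7, Nek2, Sema7a, Grid2ip, Col18a1, Rgs8, Atp2a3, Itpka, Coro2b and Sh3glb2. Fgf7 had a log2 fold change of −1.91 at 5 weeks and −2.89 at 12 weeks, a difference of −0.99 ± 0.106 (SE, adjusted p = 0.00657). Rgs8 went from −1.54 to −2.27, a difference of −0.72 (adjusted p = 0.0297), and Itpka from −1.36 to −2.03 (difference −0.67, adjusted p = 0.0297). Sema7a, a membrane-anchored semaphorin, was at −0.38 at 5 weeks and at −0.85 at 12 weeks, and Coro2b and Sh3glb2, neither called at 5 weeks, were at −0.49 and −0.57 at 12 weeks. Crtac1, a secreted cartilage protein, was the 1 gene with a larger rise, from 3.67, 3.64 and 4.01 FPKM in WT to 5.92, 5.26 and 5.39 FPKM in Tg at 12 weeks (0.54) against −0.06 at 5 weeks. Hrk, at 0.95 at 5 weeks and 1.85 at 12 weeks, had adjusted p = 0.076 for the difference between the ages. Age and table cannot be told apart, since the libraries of each age were normalized together.

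**Figure D5:**
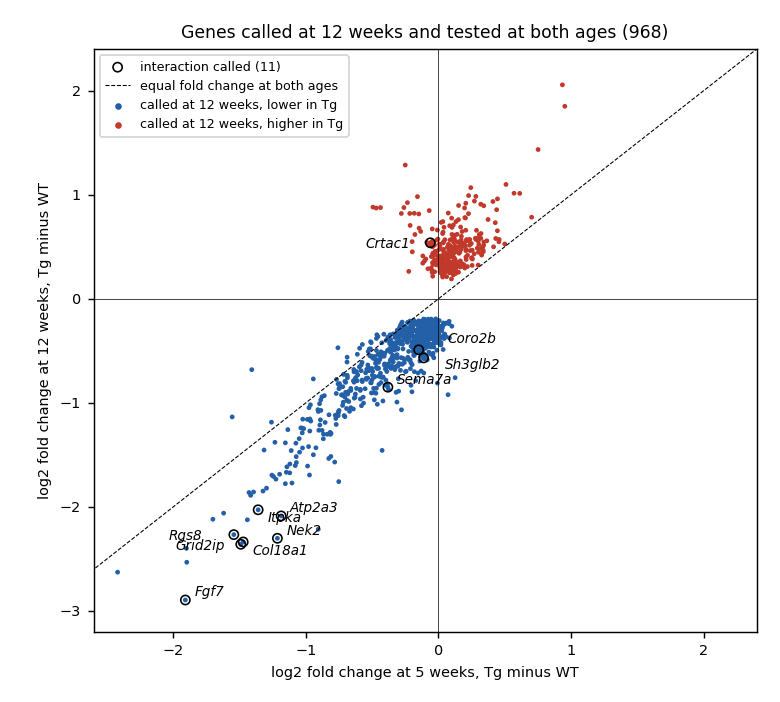
Log2 fold change at 12 weeks against that at 5 weeks (Tg minus WT) for the 968 genes called at 12 weeks and tested at both ages, with the dashed line marking equal change and circles marking the 11 genes with a called interaction. The genes that fell lie mostly below the line and those that rose above it, as the choice of genes by their 12 week call favours.

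The KI mouse, Atxn1-154Q/2Q on C57BL/6J, carries the expanded repeat in the endogenous gene and so in every cell that expresses it. The KI cerebellum at 12 weeks, with 3 KI and 3 WT libraries of that strain, had 749 genes called (5.58%), 269 higher (2.00%) and 480 lower (3.57%). Construct, repeat length, strain and table differ together between the models and cannot be told apart. Of the genes tested in both, 180 were called in both, which is 19% of the 949 called in Tg and 25.6% of the 703 called in KI cerebellum, and 138 of the 180 had the same direction. Of 657 genes lower in Tg 125 were lower and 13 higher in KI, and of 292 higher in Tg 13 were higher and 29 lower in KI. Of the 27 Purkinje cell markers 9 were lower and 1 was higher in KI, with a median log2 fold change of −0.29. Transcripts of neurons outside the cerebellar cortex moved in this comparison too. Nrgn, a calmodulin-binding protein of forebrain neurons, was at 61.3, 40.2 and 55.8 FPKM in WT of the KI strain and at 3.58, 2.27 and 2.69 FPKM in KI, and the thalamic transcription factor gene Tcf7l2 at 18.2, 11.3 and 15.7 against 1.56, 1.47 and 1.73 FPKM. Both were chosen after their values were seen. The summed level of the 22 markers of cerebellar nuclei and neighbouring brain neurons was 142 to 248 FPKM in WT and 108 to 123 FPKM in KI, and 2 of 7 tested were lower. The part of these transcripts in the differences between the models was not tested.

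The interaction of model and genotype was called for 1442 of 12327 genes (11.7%). The difference was above 0 for 688 (5.58%) and below 0 for 754 (6.12%). Among the called were 398 of the 657 genes lower and 190 of the 292 higher in Tg. Itpr1 was at −1.69 in Tg and −0.17 in KI (difference −1.52, adjusted p = 0.000337), and Rgs8 at −2.27 and −0.61 (difference −1.65, adjusted p = 6.73e-05). The astrocyte genes Gja1 and Etnppl, which rose in Tg, fell in KI. Gja1 was at 0.53 in Tg and −0.39 in KI (difference 0.92, adjusted p = 0.000794), and Etnppl at 1.07 and −0.55 (difference 1.62, adjusted p = 0.000594). In KI 4 of 18 astrocyte and Bergmann glia markers were lower, 0 were higher, and 0 of 21 microglia and complement markers were called. Slc1a3, which fell in Tg, was at −0.01 in KI (adjusted p = 0.972). Tnc was at −2.21 in Tg and 0.28 in KI, where it was not called (adjusted p = 0.0974), with a difference of −2.49 (adjusted p = 0.000125). Genes with a fall in both models include Cck (−1.29 and −0.95), Igfbp5 (−1.01 and −1.30) and Kctd12 (−1.17 and −0.72).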

How the data were processed

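Poly-A RNA was sequenced as 75 bp paired-end reads, per the study's methods. The FPKM values were made and deposited by the authors with TopHat2 (2.1.0), Cufflinks (2.2.1), Cuffnorm and Cuffdiff on mm10, per the submitters' processing notes, with the 6 libraries of a table normalized together. Columns of the authors' own tests (fold changes, p-values, significance) were not used. Their group averages equalled the means of the library columns within 1% for 100% of entries. Loci are those of the deposited table and can span neighbouring genes.

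Entries that had a symbol and averaged 0.5 FPKM or more in each genotype were tested in limma (3.58.1, R 4.3.3), on log2(FPKM + 0.1) and with its mean-variance trend, and p-values were adjusted by Benjamini-Hochberg over all genes tested (threshold 0.05). Fold changes are on that scale and understate changes of low genes. A gene is called where it passed, and rose or fell is written of called genes. Entries without a symbol (3538, 13.1%) were left out. Of the tested entries, 470 share a symbol with another and 507 hold several symbols, which makes their levels uncertain, and lists used the entry of highest mean. Interactions with age or model used 12 libraries of 2 tables and symbols listed once in each. On simulated data 96% of changes of 1 and 100% of changes of 2 on the log2 scale were recovered among 13641 genes at this size. The changed genes averaged 2 FPKM or more, and noise was drawn independently for each library. Recovery for genes of lower level, or with deviations shared between libraries, was not simulated, so a gene not called can still differ.

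The values of the 3 libraries of a genotype are given in the order of the replicate numbers. Nothing in the labels says more of the replicates than that they are separate samples, so p-values measure the spread between these samples. An exact permutation of 3 against 3 cannot go below p = 0.1 and was not used. Genes named are the 15 largest falls and 15 largest rises among called genes of at least 2 FPKM in 1 genotype with no overlap, the 10 smallest p-values, Atxn1, Pcp2, called or defining members of 35 lists and, for each interaction, up to 10 genes per direction. Some genes and 2 lists that this rule names are not reported here. Hrk is in no list and is named by its rise. The members and lists were chosen with earlier results of these data known. For each gene 18 settings were tried beside the main one, fewer where a gene could not be tested in one: other pseudocounts (1, 0.01), filters, scalings, no trend, each library left out, the replicate block, all 12 libraries of both ages, and 3 chosen after the data were seen (both pairs of libraries left out, a GC trend removed). Figures were drawn with matplotlib (3.10.9, Python 3.11.15).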

Additional observations from a re-analysis of the deposited data

Results flagged for a closer look

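Each of these results was singled out because the difference between 2 fold changes was itself tested and passed the threshold, and no explanation was tested. Between 12 and 5 weeks, the log2 fold change of Tg against WT was lower at 12 weeks for Fgf7 by −0.99, Nek2 by −1.09, Sema7a by −0.47, Grid2ip by −0.87, Col18a1 by −0.86, Rgs8 by −0.72, Atp2a3 by −0.90, Itpka by −0.67, Coro2b by −0.34 and Sh3glb2 by −0.46, and it was higher for Crtac1 by 0.60. For these 11 genes the adjusted p of the difference was 0.00657 to 0.0477.

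Between Tg and KI cerebellum at 12 weeks, 9 of the called genes of smallest p with a larger value in Tg differed in log2 fold change by 0.63 (Tprkb), 1.38 (Mxra7), 1.96 (Ngef), 0.89 (C1ql3), 0.54 (Prdx6), 1.36 (Pdlim2), 1.34 (Agt), 1.62 (Etnppl) and 0.92 (Gja1). In Ngef, an exchange factor for small GTPases in neurons, the value was 0.46 in Tg, called in 9 of 18 alternative settings, and −1.49 in KI cerebellum. Its level was 11.1, 7.08 and 8.27 FPKM in WT of the KI strain, in which transcripts of neurons outside the cerebellar cortex such as Nrgn were also higher than in KI, and 3.18, 2.83 and 3.05 FPKM in KI, and the part of those transcripts was not tested. The 10 with a lower value in Tg differed by −2.33 (Fgf7), −1.65 (Rgs8), −1.66 (Trabd2b), −1.50 (Stk17b), −1.71 (Gng13), −2.49 (Tnc), −1.77 (Atp2a3), −1.28 (Doc2b), −0.93 (Kcnab1) and −1.40 (Garnl3). Doc2b, a calcium sensor of vesicle release, was at −1.82 in Tg and −0.54 in KI cerebellum, and Garnl3 at −1.69 and −0.29.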

How the results depend on the processing

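The count of 1025 called genes (307 higher, 718 lower) stayed within 1.5 times under other pseudocounts, a filter at 1 FPKM, median scaling, quantile normalization, no trend and removal of a GC trend, with 746 to 1050 called. Quantile normalization moved the split to 370 higher and 590 lower. No filter gave 784 genes, of which 188 were higher. Leaving out 1 library gave 435 to 977 genes, 76 to 356 higher and 351 to 621 lower. The fit of 12 libraries of both ages gave 2155 (827 higher, 1328 lower). Without the neutrophil pair 499 were called (132, 367), and without the muscle and pituitary pair 290 (41, 249). These fits use fewer or more samples by construction, and the cause of the other moves was not tested. Of 151 named called genes 84 were called in every setting, and none changed direction. Genes near 0 that were never called changed sign: Atxn1 (0.0184 with median scaling, 0.0214 with quantile normalization, 0.0195 without the muscle and pituitary pair, 0.0061 with the GC trend removed, −0.0217 to 0.0253 without 1 library), Homer1 (0.0219 with quantile normalization, −0.156 to 0.0855 without 1 library), Gna11 (0.0210 with quantile normalization), Slc32a1 (0.0440 without the muscle and pituitary pair) and Neurod1 (0.0717 with quantile normalization, 0.0527 without that pair, −0.127 to 0.0449 without 1 library). Over all genes, same-numbered WT and Tg samples did not deviate together (correlations −0.32, −0.21 and 0.058). With 3 libraries per genotype this cannot exclude a pairing, and the labels state none. The replicate block gave 942 calls (281 higher, 661 lower), 10 instead of 11 age interaction calls, 947 instead of 1442 model interaction calls and 14 instead of 1 choroid plexus markers. Under the block the age interactions of Rgs8, Atp2a3, Col18a1, Coro2b, Sh3glb2 and Crtac1 had adjusted p from 0.0568 to 0.0825. Depth in reads is unknown, so no counting error can be given.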

Other observations

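Transcripts of tissues outside the cerebellum stood out in some of the libraries. Those that passed the filter were tested with all other genes, and Lcn2 is also a member of the astrocyte and Bergmann glia list. Lipocalin-2 (Lcn2), an acute phase protein that neutrophils also make, was at 60.4 FPKM in WT replicate 2 and 60.0 FPKM in Tg replicate 1 and at most 0.548 FPKM in the other libraries. S100a9 was at 54.0 and 51.4 FPKM in the same libraries. Their deviations from the genotype means correlated at 0.455 across genes, which are not independent replicates. Prolactin (Prl) was at 142 FPKM in Tg replicate 3 and at 4.85 FPKM or less elsewhere. The muscle genes Tnnt3 and Mylpf were at 17.4 and 12.1 FPKM in WT replicate 1 and at 1.06 FPKM or less elsewhere. Fos, an immediate early gene, was at 22.2, 6.85 and 5.22 FPKM in WT and 5.02, 12.9 and 24.8 FPKM in Tg, and its ranges overlapped.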
